A study of Arabidopsis thaliana with 4 samples.

Results

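Cytochrome P450 genes were followed on Affymetrix arrays of Arabidopsis thaliana. They were the probe sets with 1 gene in the platform annotation whose RefSeq symbol is CYP followed by a family number of 2 or 3 digits and a subfamily letter. The rule found 23 genes, each with 1 probe set, among 13436 probe sets that could be named and 22746 in the table. RefSeq lists 236 genes with such a symbol, and those without a named probe set were not analysed here. Of the 23 genes, 15 had a signal of 248 or more, the median of all values, on at least 1 array and are described below. The others are given as a group.

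The plants were 3 weeks old and labelled as young seedlings, all on the Col-0 background. The 4 groups were untreated wild type, wild type after 2 h at 2000 µmol m-2 s-1 (high light), the untreated erf6-1 mutant, and erf6-1 after the same light. The study's stated aim was to identify genes under the control of ERF6, an ethylene response transcription factor, during oxidative stress and high light. The labels name the mutant line without describing the allele, and ERF6 itself was not analysed here. With a single array (n = 1) for each group there was no replicate spread to compare a difference with, no p-value was possible, and all values describe these 4 arrays only.

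Cytochrome P450 enzymes are haem proteins, mostly anchored in the endoplasmic reticulum, that insert an oxygen atom into small molecules with electrons from NADPH. Plants hold very large P450 families, which make hormones, sterols, phenylpropanoids, waxes and defence compounds, and the number after CYP gives the family. CYP71 is a large plant family in which many members act in specialised and defence metabolism, and its B subfamily in Arabidopsis lies largely in tandem rows of related genes. Best known of that subfamily is PAD3 (CYP71B15), which acts in the synthesis of the phytoalexin camalexin and was not analysed here.

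Values were MAS5 signals in intensity units, scaled by the authors so that the 2% trimmed means of the arrays lay between 493 and 495. Median signals ranged from 207 to 321. The untreated erf6-1 array stood apart, with Spearman's correlations of 0.623 to 0.632 with the other arrays across all probe sets. Among the other arrays they were 0.696 to 0.834. All light differences in erf6-1, genotype differences without treatment and differences between the responses rest on the untreated erf6-1 array. Of the leaf markers, 2 of 6 could be named. The RuBisCO activase RCA had signals of 58919 and 37117 in untreated and high-light wild type and of 40655 and 32887 in erf6-1. SBPASE had 12831 and 9432 in the wild type and 14727 and 12275 in erf6-1. Unlike RCA, it was higher in erf6-1 than in the wild type with and without high light. Of the root markers 3 of 9 could be named, and their summed signal was 29570, 16616, 22632 and 18559 in untreated and high-light wild type and untreated and high-light erf6-1. PYK10 made up nearly all of that sum, with 28679, 15881, 21338 and 18297 in the same order. EXPA7 had 625.5, 331, 852 and 160 and EXPA18 had 265.5, 403.5, 442 and 102, so both were highest in untreated erf6-1, unlike PYK10. The flower marker AT5G07230, the only one of 5 that could be named, was at most 319.6, and none of the 4 seed markers could be named. The part of these markers in the results below was not tested. In such bulk samples, fewer cells of a type and less RNA per cell cannot be told apart.

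Nearly all of the genes belonged to 1 subfamily. CYP71 had 19 genes, all of them CYP71B, and families 51, 78, 79 and 84 had 1 each. Past the filter were 12 CYP71B genes, CYP51G2, CYP78A9 and CYP84A4. Signals under 100, the 30th percentile of all values, were raised to that floor, so a difference with 1 array under it is a bound, written as at least, and no fold is given where both are under it. Only 6 of the 15 genes were above the floor on all 4 arrays, 6 on 3 arrays, 2 on 2 arrays and CYP71B27 on 1. A signal of 248 was reached on all arrays by the 4 bright genes named below and CYP71B5, and the other genes passed through 1 or 2 arrays. Such a gene had to be high there, so counts and medians over the 15 genes describe them and support no change of the family. A probe set was called bright when its mean log2 signal reached that of a signal of 588, the 75th percentile of all values, and 4 genes were: CYP71B6, CYP71B26, CYP71B28 and CYP71B34. The gene just inside the threshold of 248 was CYP84A4, with a highest signal of 267.6, and the gene just outside was CYP71B22, with 243.1.

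**Figure D1:**
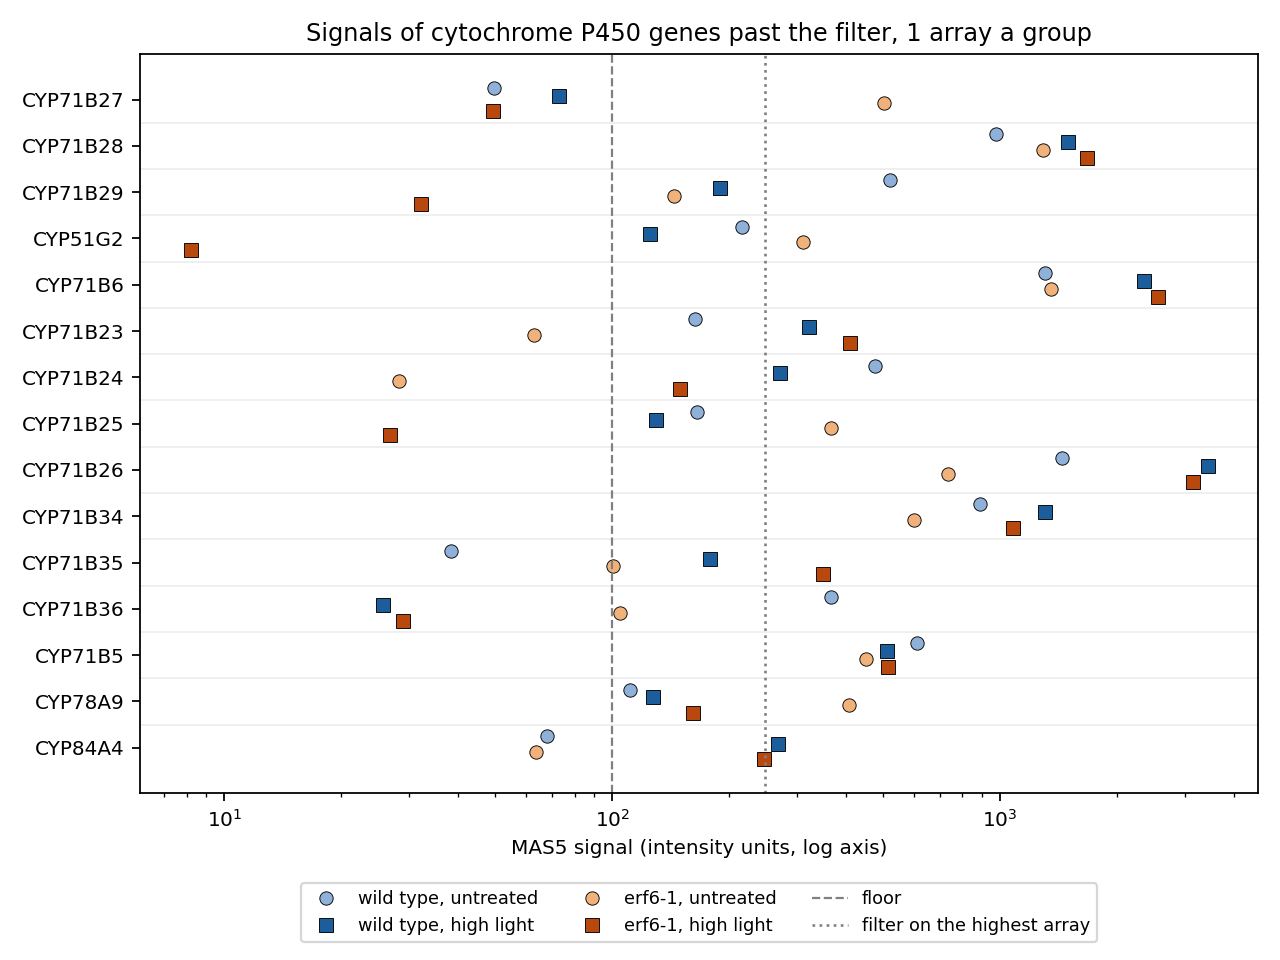
MAS5 signal in intensity units (log axis) of the 15 cytochrome P450 genes past the filter, with 1 point for each array. Circles are untreated and squares high-light arrays, blue the wild type and orange erf6-1, and lines mark the floor of 100 and the filter of 248. CYP71B6, CYP71B26, CYP71B28 and CYP71B34 lie to the right on all arrays with both squares to the right of both circles, whereas most other genes cross the floor.

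All 4 bright genes had higher signals in both high-light arrays than in both untreated ones, as had 34.9% of all bright probe sets. CYP71B26 (AT3G26290) had a signal of 1442 in the untreated wild type, 3429 after high light, 733 in untreated erf6-1 and 3140 after high light. Its high-light signals did not overlap the untreated ones, and the lower high-light signal was 2.18-fold above the higher untreated signal. It was 2.38-fold higher after high light in the wild type and 4.28-fold higher in erf6-1, which had the lower untreated signal. With the 4 medians set equal the log2 differences were 1.67 and 2.73, and after quantile normalisation 0.97 and 2.06, the first of which is just under 2-fold.

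CYP71B6 (AT2G24180), an enzyme that converts indole-3-acetonitrile, a breakdown product of indole glucosinolates, to indole-3-carbaldehyde, had signals of 1305 and 1352 in untreated wild type and erf6-1. After high light they were 2353 and 2550, so the genotypes lay close together and the treatments apart. The gene was 1.80-fold higher in the wild type and 1.89-fold higher in erf6-1, under 2-fold in both. With equal medians the log2 differences were 1.28 and 1.55, past 2-fold, and after quantile normalisation 0.63 and 0.60. The median over all bright probe sets was 0.50 and 0.79 with equal medians.

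CYP71B28 (AT1G13090) had signals of 974 in the untreated wild type and 1493 after high light, against 1291 and 1675 in erf6-1. CYP71B34 (AT3G26300) had 886 and 1304 in the wild type and 602 and 1082 in erf6-1. Neither gene overlapped between the treatments, but the margins were small, since the lower high-light signal was 1.16-fold and 1.22-fold above the higher untreated one. CYP71B28 was 1.53-fold higher after high light in the wild type and 1.30-fold in erf6-1, and CYP71B34 was 1.47-fold and 1.80-fold higher. All these differences stayed positive under both other scalings. On the log2 scale they lay between 0.11 and 1.04 for CYP71B28 and between 0.47 and 1.48 for CYP71B34. The separation of the treatments in CYP71B28 was lost after quantile normalisation. Relative to the untreated wild type, the high-light wild type was then at 0.49 and untreated erf6-1 at 0.50.

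CYP71B5 (AT3G53280) was above the floor on all arrays without being bright. Its signals were 611 in the untreated wild type, 511.5 after high light, 453 in untreated erf6-1 and 514 after high light. This was the narrowest span of the 6 genes above the floor on all arrays, and the treatments overlapped. The light difference was -0.26 on the log2 scale in the wild type and 0.18 in erf6-1, and the former was 0.17 with equal medians.

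Among dimmer CYP71B genes, 2 more were higher in both high-light arrays. CYP71B23 (AT3G26210) had signals of 164 and 322 in untreated and high-light wild type, and 63.0 and 410.1 in erf6-1. Its difference was 1.97-fold in the wild type and at least 4.10-fold in erf6-1. CYP71B35 (AT3G26310) had signals of 38.4 and 178.5 in the wild type, at least 1.78-fold higher after high light, and 100.6 and 350 in erf6-1, or 3.48-fold higher. Untreated signals of both genes lay near or under the floor, so these folds depend on where it is set. With the floor at 200, CYP71B23 stood at 0.69 and 1.04 on the log2 scale. CYP71B35 was then at 0.81 in erf6-1, under 2-fold, and had no value in the wild type.

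On the lower side in high light were CYP71B25, CYP71B29 and CYP71B36. CYP71B36 (AT3G26320) had a signal of 367 in the untreated wild type and 25.6 after high light, at least 3.67-fold lower. In erf6-1 it was near the floor without treatment, at 104.8, and under it at 28.9 after high light. CYP71B29 (AT1G13100) went from 522 to 190 in the wild type, 2.74-fold lower, and from 144 to 32.1 in erf6-1, at least 1.44-fold lower. CYP71B25 (AT3G26270) had 165 and 129 in the wild type, 1.28-fold lower, and 366 and 26.7 in erf6-1, at least 3.66-fold lower. With the floor at 200, CYP71B36 in the wild type was at -0.88 on the log2 scale and CYP71B25 in erf6-1 at -0.87, both under 2-fold. In CYP71B25 and CYP71B36 both high-light signals lay under both untreated ones, whereas in CYP71B29 the high-light wild type lay above untreated erf6-1. The former held for 30.6% of probe sets past the filter that were not bright. With equal medians the wild-type difference of CYP71B25 was 0.07 on the log2 scale, so the separation of that gene was lost. CYP71B36 lost its separation on floored signals under both other scalings, with untreated erf6-1 then at the floor.

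In the last pair of CYP71B genes the untreated erf6-1 array held the lowest or the highest signal. CYP71B24 (AT3G26230) had signals of 476 and 271 in untreated and high-light wild type, 1.76-fold lower after light, but 28.3 and 150.0 in erf6-1, at least 1.5-fold higher. CYP71B27 (AT1G13070), which RefSeq lists as a transcribed pseudogene, had a signal of 501 in untreated erf6-1 and of 49.4 to 72.9 on the other arrays. It passed the filter through that array alone.

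Single members stood for the other families. CYP84A4 (AT5G04330), an enzyme of the synthesis of arabidopyrones, which derive from phenylpropanoids, had signals of 68.1 and 63.5 in untreated wild type and erf6-1 and of 268 and 246 after high light. Both high-light signals lay above the floor and both untreated ones under it, so the fold of the gene was at least 2.68 in the wild type and at least 2.46 in erf6-1. With the floor at 200 the log2 differences were 0.42 and 0.30, under 2-fold. CYP78A9 (AT3G61880), known for effects on fruit and seed size in Arabidopsis, had 111 and 127 in untreated and high-light wild type and 407 and 162 in erf6-1. It was 1.15-fold higher after high light in the wild type and 2.52-fold lower in erf6-1, where the untreated array held its only signal over 248. The latter difference was under 2-fold with equal medians at -0.70 on the log2 scale, after quantile normalisation at -0.74 and with a pseudocount of 100 at -0.95. CYP51G2 (AT2G17330) is listed as a transcribed pseudogene related to CYP51G1, the sterol 14-demethylase. Its signals were 217 and 125 in the wild type, 1.73-fold lower after light, and 310 and 8.2 in erf6-1, at least 3.10-fold lower, or -0.63 on the log2 scale with the floor at 200.

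In the wild type, 2 of the 15 genes, CYP71B26 and CYP84A4, were at least 2-fold higher after high light, where 14.3% of all 17186 probe sets past the filter were, and 2, CYP71B29 and CYP71B36, at least 2-fold lower, where 23.9% were. In erf6-1, 4 were at least 2-fold higher, CYP71B23, CYP71B26, CYP71B35 and CYP84A4, against 16.7% of all. Another 4 were at least 2-fold lower, CYP71B25, CYP71B27, CYP51G2 and CYP78A9, against 29.8%. These counts are small, were not tested against the shares of all probe sets, and are no result about the family in either genotype. Of the 4 bright genes, CYP71B26 was past 2-fold in each genotype, against 14.0% of bright probe sets on the higher side in the wild type and 17.4% in erf6-1. The median log2 difference of the members with a value was 0.38 over 14 genes in the wild type and 0.38 over 15 in erf6-1, whereas over all probe sets past the filter it was -0.22 and -0.30. The bright genes had medians of 0.73 and 0.88, and the 11 others -0.30 over 10 genes with a value and -0.07 over 11. All bright probe sets had medians of 0.08 and 0.15. With the array medians set equal, the median over all probe sets past the filter was 0.19 in the wild type and 0.31 in erf6-1. That of the members was 0.80 and 0.93, and that of all bright probe sets 0.50 and 0.79. Some members had to be high on 1 or 2 arrays to pass the filter, so these medians support no change of the family.

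**Figure D2:**
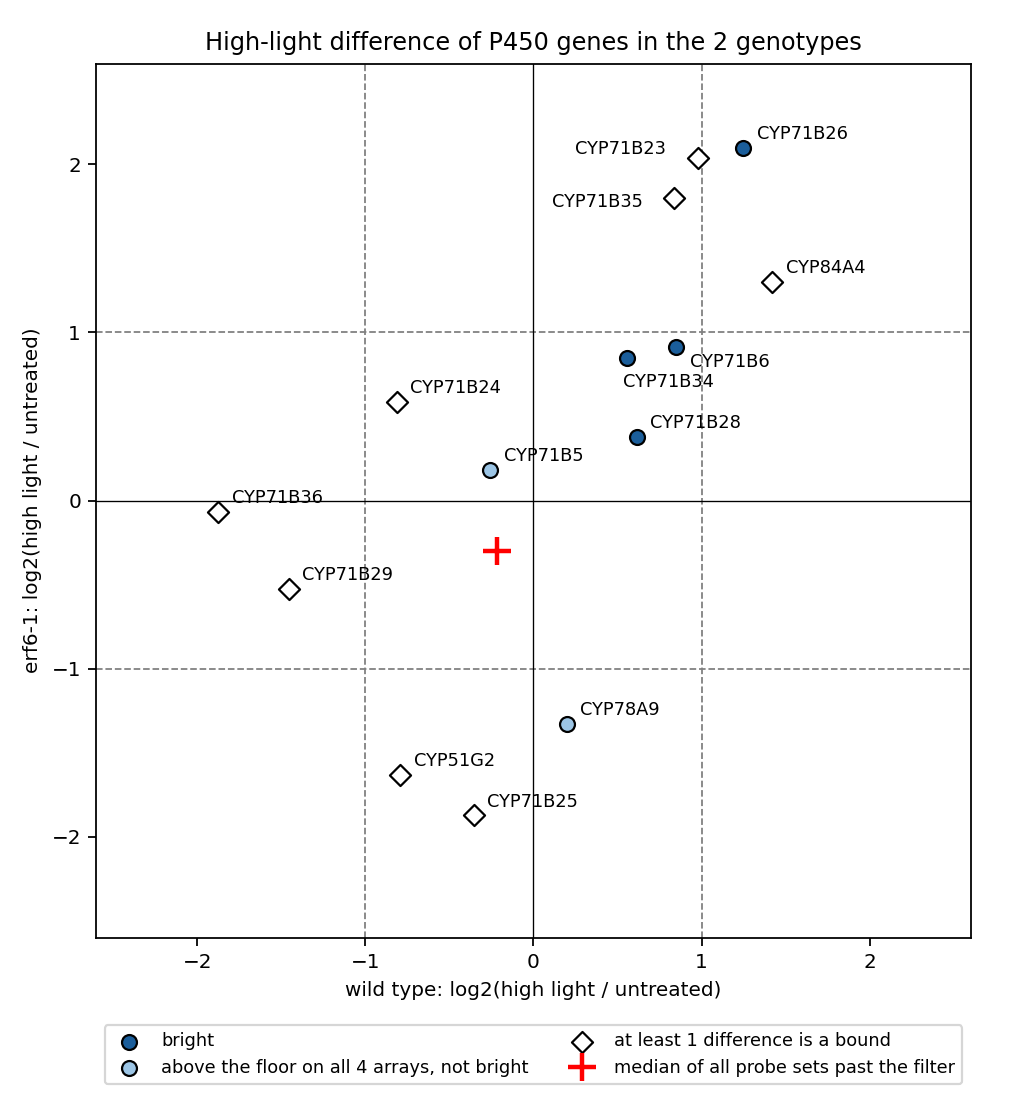
Log2 difference between the high-light and untreated arrays in the wild type (x axis) and in erf6-1 (y axis), with 1 point for each P450 gene that has a value in both. Dark circles are bright genes, light circles other genes above the floor on all 4 arrays, diamonds genes with at least 1 bound, and the cross the median of all probe sets past the filter at -0.22 and -0.30. The 4 bright genes, CYP71B23, CYP71B35 and CYP84A4 lie in the upper right, CYP71B26 being past 2-fold (dashed lines) on both axes.

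Both high-light arrays exceeded both untreated ones for 7 of the 15 genes, namely the 4 bright ones, CYP71B23, CYP71B35 and CYP84A4. This held for 18.5% of all probe sets past the filter and 34.9% of bright ones. The last 3 of the 7 reached 248 on high-light arrays only, and so are among the 15 genes through the treatment in which they were high. Both lay under the untreated arrays for 3 genes, CYP71B25, CYP71B36 and CYP51G2, and for 28.7% of all. None of the 3 was bright, and each reached 248 on 1 untreated array only. Among probe sets past the filter that were not bright the share was 30.6%. CYP71B28 overlapped between the treatments after quantile normalisation, and CYP71B25 with equal medians. In CYP71B36 untreated erf6-1 fell to the floor under both scalings, level with the high-light wild type. Relative to the untreated wild type, both were then at -1.71 with equal medians and -1.76 after quantile normalisation.

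Without treatment all genes 2-fold apart between the genotypes were dim. In untreated erf6-1, 3 of 15 genes were at least 2-fold higher than in the untreated wild type, against 23.7% of all probe sets, and 3 at least 2-fold lower, against 19.6%. The higher genes were CYP71B27, at least 5.01-fold, CYP78A9, 3.67-fold, and CYP71B25, 2.22-fold. On the lower side were CYP71B24, at least 4.76-fold, CYP71B29, 3.62-fold, and CYP71B36, 3.50-fold. None of these 6 was bright, and all rest on the array that stood apart. The 3 higher genes reached 248 in untreated erf6-1 only, CYP71B29 and CYP71B36 in the untreated wild type only, and CYP71B24 in the wild type only, so each is among the 15 through the group where it was high. CYP71B25 was under 2-fold, between 0.81 and 0.96 on the log2 scale, with equal medians, after quantile normalisation, with a pseudocount of 100 and with the floor at 200. At that floor CYP71B36 was at -0.88. Among probe sets past the filter that were not bright, 31.3% were at least 2-fold higher and 24.5% lower. Of the 11 genes that were not bright, 3 were higher and 3 lower, which is no result about these genes. The median log2 difference was -0.21 over 14 genes with a value and 0.04 over all probe sets past the filter. Of the bright genes, CYP71B26 was 1.97-fold lower in untreated erf6-1, CYP71B34 1.47-fold lower, CYP71B28 1.33-fold higher and CYP71B6 1.04-fold higher. With equal medians the difference of CYP71B26 was -1.18 on the log2 scale and after quantile normalisation -1.20, past 2-fold both times, and that of CYP71B6 was -0.15 and 0.14.

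After high light none of the 15 genes differed 2-fold between the genotypes, against 6.62% of all probe sets higher and 7.00% lower in erf6-1. The median log2 difference of 13 genes with a value was -0.12, and 0.01 over all probe sets. Bright genes lay between -0.27, for CYP71B34, and 0.17, for CYP71B28. CYP71B26 was at -0.13, although the same gene differed most among the bright ones without treatment. The ends of the range were CYP71B35, 1.96-fold higher in erf6-1, and CYP71B29, at least 1.90-fold lower. For CYP51G2, CYP71B25 and CYP71B29 the erf6-1 signal was under the floor, so with the floor at 50 these 3 genes were past 2-fold on the lower side.

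Both erf6-1 arrays lay under both wild-type arrays for CYP71B24 and CYP71B29, and above them for CYP78A9. These are 2 and 1 of 15 genes, against 12.3% and 12.2% of all probe sets past the filter. CYP71B24 had wild-type signals of 271 and 476 against 28.3 and 150.0 in erf6-1, and CYP71B29 had 190 and 522 against 32.1 and 144.

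**Figure D3:**
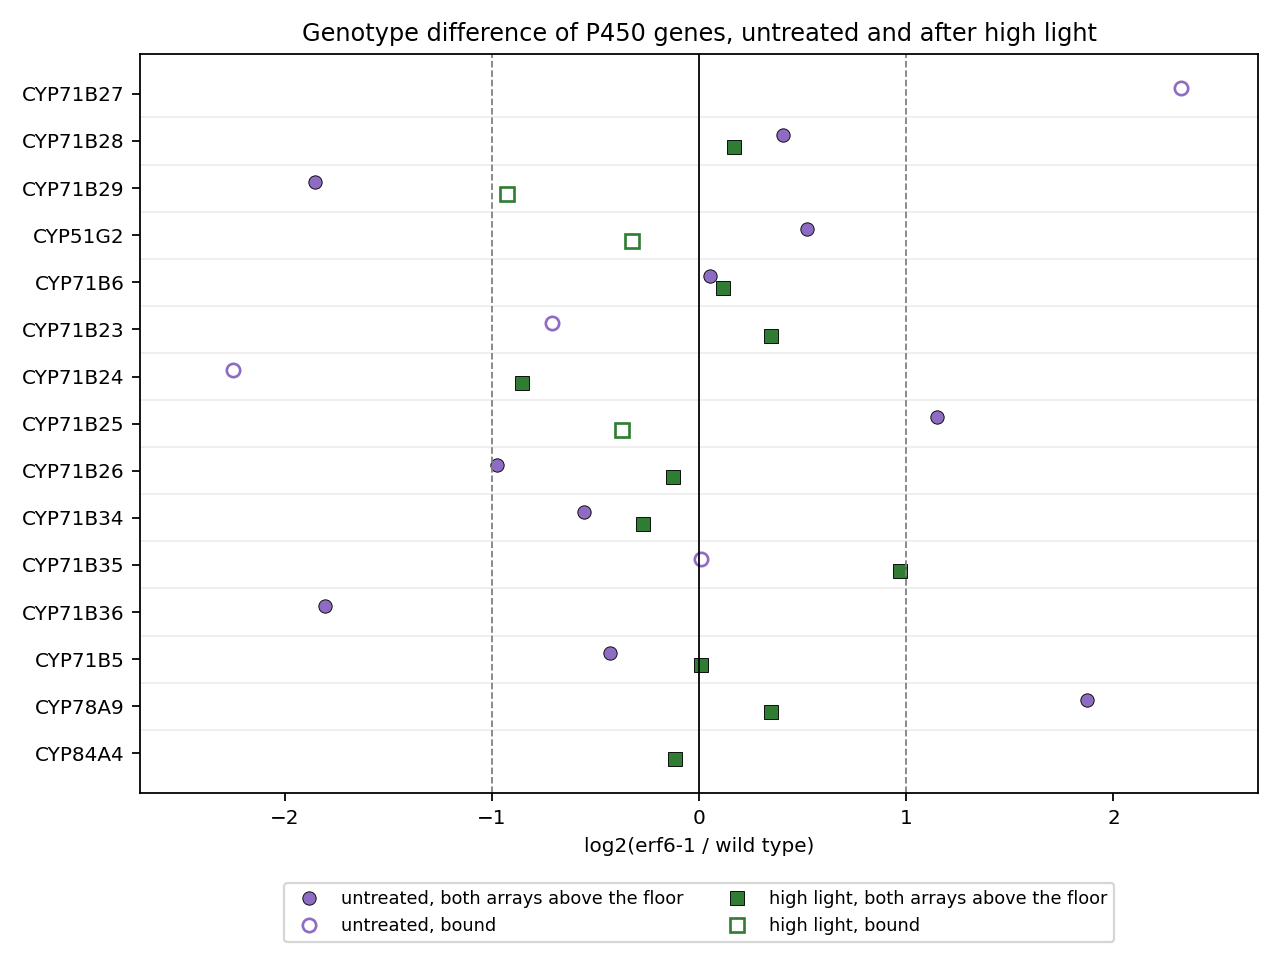
Log2 difference between erf6-1 and the wild type for the 15 P450 genes, with circles for the untreated arrays and squares for the high-light arrays. Open symbols are bounds, a missing symbol means that both signals were under the floor, and dashed lines mark 2-fold. Circles spread from -2.25 for CYP71B24 to 2.33 for CYP71B27, whereas all squares lie within 2-fold.

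The difference between the light responses was taken as erf6-1 minus wild type, on the log2 scale. It was past 2-fold on the higher side for CYP71B36 at 1.81, CYP71B24 at 1.40 and CYP71B23 at 1.06. CYP71B23 was under 2-fold with equal medians at 0.91, after quantile normalisation at 0.88, with the pseudocount at 0.97 and with the floor at 200 at 0.35. On the lower side were CYP71B27 at -2.33, CYP78A9 at -1.53 and CYP71B25 at -1.52. Both wild-type signals of CYP71B27 were under the floor, so its value is the bound in erf6-1 alone. With the floor at 200, CYP71B36 at 0.88, CYP71B24 at 0.81 and CYP71B25 at -0.87 were also under 2-fold. These are 3 of 15 each way, against 21.7% and 25.6% of all probe sets past the filter. Values for genes with an array under the floor depend on it, and among these 6 only CYP78A9 was above the floor on all arrays. The other 5 genes above the floor throughout were CYP71B26 at 0.85, CYP71B5 at 0.44, CYP71B34 at 0.29, CYP71B6 at 0.06 and CYP71B28 at -0.24. The median over the 15 genes was 0.29, and -0.02 over all probe sets past the filter. For CYP71B26 the value was 1.06 with equal medians, past 2-fold. This measure uses all 4 arrays, among them the 2 arrays of each comparison above, so it is no separate observation.

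Genes next to each other in RefSeq's gene order, or with 1 gene between them, were set side by side. Such pairs numbered 10 among the 23 genes, all within CYP71B, and in 6 of them both genes were past the filter. Light differences had opposite signs within 4 of the 6 pairs in the wild type and 3 in erf6-1. Of the members with a value, 8 were higher and 6 lower in the wild type, and 9 and 6 in erf6-1. Opposite signs are therefore common between any 2 of them, and genes that are not neighbours were not compared. The wild-type difference of CYP71B25 was 0.07 on the log2 scale with equal medians. For CYP71B36 in erf6-1 the difference was a bound of -0.07. CYP71B28 was 1.53-fold higher after high light in the wild type and its neighbour CYP71B29 2.74-fold lower. In the longest row, the order was CYP71B25, CYP71B26, CYP71B34, CYP71B35, CYP71B36 and CYP71B37, the last of which did not pass the filter. CYP71B26, CYP71B34 and CYP71B35 were higher in both high-light arrays than in both untreated ones, and CYP71B25 and CYP71B36 lower. CYP71B25 lost this separation with equal medians, and CYP71B36, on floored signals, under both other scalings. CYP71B37 had signals of 33.7 and 86.5 in untreated wild type and erf6-1 and of 166.4 and 132.3 after high light. CYP71B35 and CYP71B36 are adjacent, and their signals went from 38.4 to 178.5 and from 367 to 25.6 in the wild type. None of the 23 probe sets carries the letter suffix with which Affymetrix marks sets that can match several transcripts, but binding of related CYP71B transcripts to the same probes was not tested.

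**Figure D4:**
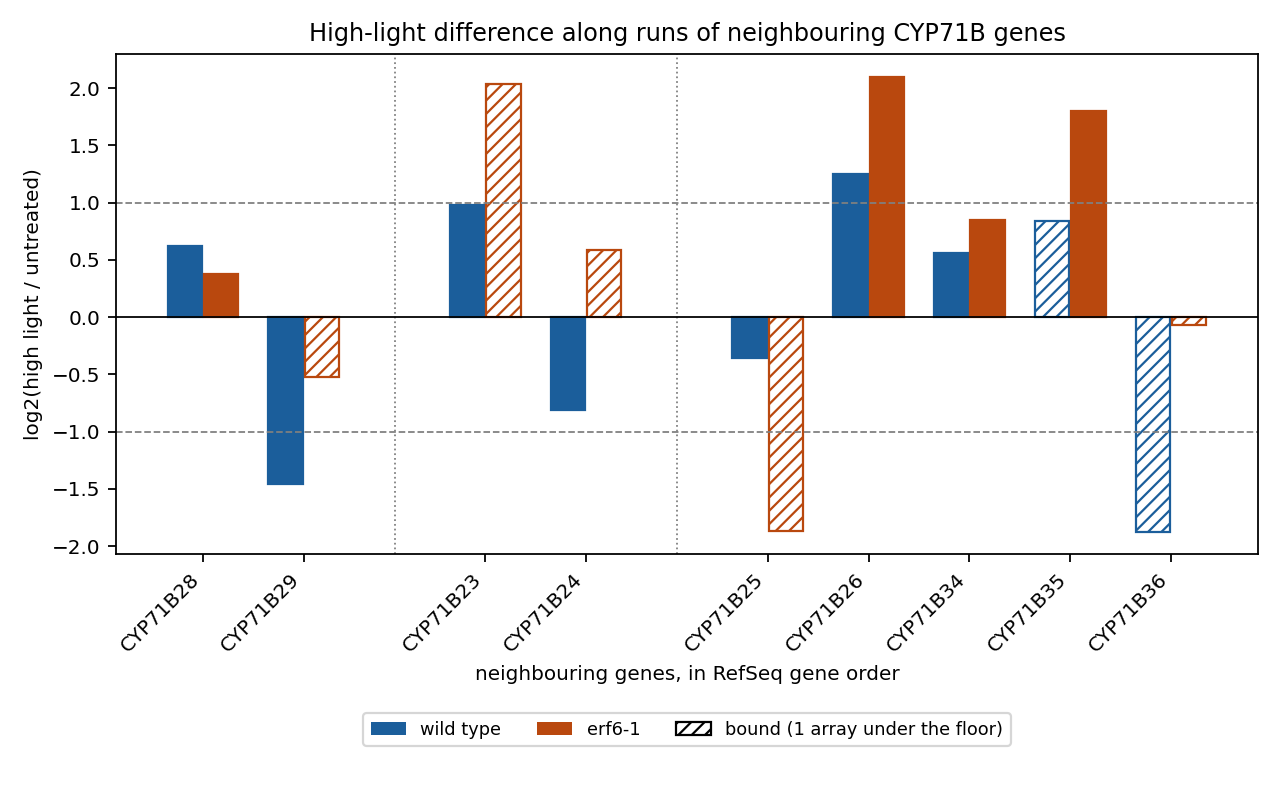
Log2 difference between the high-light and untreated arrays in the wild type (blue) and erf6-1 (orange) for 9 CYP71B genes past the filter, in RefSeq gene order, with dotted lines between separate rows of neighbours. Hatched bars are bounds and dashed lines mark 2-fold. Bars of neighbours such as CYP71B28 and CYP71B29, or CYP71B35 and CYP71B36, point in opposite directions.

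Of the 8 genes under the filter, 4 were under the floor on all arrays. These were CYP71B16, CYP71B21, CYP71B30P and CYP79A2, which in Arabidopsis makes phenylacetaldoxime, the precursor of benzylglucosinolate, and had signals of 7.0 to 62.6. The other 4 reached at most 105.5 for CYP71B31, 147.8 for CYP71B38, 166.4 for CYP71B37 and 243.1 for CYP71B22. CYP71B22 had its highest signal in the untreated wild type, with 137.3 after high light and 81.3 and 74.5 in erf6-1. CYP71B37 and CYP71B38 had theirs in the high-light wild type, at 166.4 and 147.8, against 33.7 and 15.4 without treatment.

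Lists of P450 genes by pathway and of the genes that act beside them were of limited use here. Of 71 listed P450 genes only CYP79A2 and CYP84A4 had a named probe set, and of 90 partner genes 6 had. Among those 6, high light left 1 gene past 2-fold on the higher side, DFR in the wild type and UGT74B1 in erf6-1. Of all probe sets past the filter, 14.3% and 16.7% were. On the lower side was 1 gene, BCAT4, in both genotypes, against 23.9% and 29.8% of all. DFR, a reductase of anthocyanin synthesis, had signals of 299 and 788 in untreated and high-light wild type, and 465.5 and 694 in erf6-1. In the list of CYP84A4 it stood beside HCT, a transferase of lignin synthesis, with 6692 and 4859 in the wild type and 4185 and 4663 in erf6-1. BCAT4, an aminotransferase at the start of methionine-derived glucosinolate synthesis, was lower after high light in both genotypes, at -1.93 and -1.76 on the log2 scale. UGT74B1, a glucosyltransferase later in glucosinolate synthesis, was at 0.09 and 1.21, and AT2G31790 (UGT74C1) at -0.62 and -0.26. LYC, the lycopene beta-cyclase of carotenoid synthesis, had 1089 and 633 in the wild type and 898 and 1299 in erf6-1. LYC was therefore the only partner 2-fold apart between the high-light arrays, at 1.04 on the log2 scale, but under 2-fold after quantile normalisation at 0.85 and with the pseudocount at 0.93.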

How the data were processed

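The data were 4 single-channel Affymetrix arrays, 1 for each group, and the titles gave the groups. The records also carry a description of early embryos, which contradicts the seedling material and was left aside. Per the labels, the authors made the signals with MAS5 (version not given in the sources used here). The deposited values are linear intensity values without missing entries, and their 2% trimmed means were nearly equal. Neither raw scans nor detection calls were used.

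Of 22746 probe sets, 13513 had 1 gene in the platform table and 13436 of these matched a RefSeq gene. Values were raised to a floor of 100, the 30th percentile of all values, and put on the log2 scale. Probe sets with a highest signal of at least 248 passed the filter (17186, or 75.6%), and 2-fold differences were counted. With 1 array per group no test was possible, and precision is limited by the number of arrays. Medians of a comparison of 2 arrays leave out genes with both arrays under the floor. The median of the difference between the responses kept all 15 genes. No genome build is named for the files, so no coordinates are given. The scripts were tested on simulated signals with set changes, in Python 3.11.15 with pandas 2.3.3 and numpy 2.4.6. Those changes were placed only in probe sets well above the bright threshold, so recovery in dimmer genes was not tested. Alternatives were 2 other scalings, a pseudocount, 2 other floors, no filter, and bright genes only.

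All members past the filter met the rule for named genes, which took the largest differences and bounds in each comparison and listed pathway genes. The members and lists were chosen with earlier results of these data known.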

Additional observations from a re-analysis of the deposited data

Results flagged for a closer look

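The light difference had opposite signs in the wild type and erf6-1 for 3 P450 genes and 2 partner genes. With 1 array a group these differences between the genotypes were not tested. CYP78A9 was at 0.20 on the log2 scale in the wild type and -1.33 in erf6-1, a difference of -1.53. CYP71B24 was at -0.81 and 0.58, the latter a bound, with a difference of 1.40. For CYP71B5 the values were -0.26 and 0.18 and the difference 0.44. With equal medians CYP71B5 was at 0.17 and 0.82, so its signs no longer differed. LYC was at -0.78 and 0.53, with a difference of 1.31, and HCT at -0.46 and 0.16, with a difference of 0.62. After quantile normalisation HCT was at -0.61 and -0.34, lower in both genotypes. The share of all probe sets with opposite signs was not counted. The untreated erf6-1 array, which stood apart from the others, enters all 5, and its part in them was not tested.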

How the results depend on the processing

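No paired analysis was possible because each group had 1 array. Of 70 recomputed counts of P450 genes past 2-fold, 51 stayed within 1.5 times of the value in the report. Higher after high light were 2 genes in the wild type and 4 in erf6-1. These became 6 and 7 with equal medians, 1 and 2 with the floor at 200, and 1 and 1 among bright genes. Lower after high light were 2 and 4, which became 1 and 2 with the floor at 200 and 0 and 0 among bright genes. Between the untreated arrays, 3 higher and 3 lower became 0 and 0 among bright genes. After high light, 0 lower in erf6-1 became 1 with equal medians, 1 after quantile normalisation, 2 with the pseudocount of 100 and 3 with the floor at 50. For the difference between responses, 3 higher became 1 with the floor at 200, and 3 higher and 3 lower became 0 and 0 among bright genes. Its median log2 value of 0.29 was -0.018 with the floor at 50, and that between the high-light arrays, -0.12, was 0.0065 with the floor at 200. Beyond changes that fewer genes or a moved floor bring by construction, the cause was not tested. Of 339 recomputed differences of single P450 genes, 286 stayed past or stayed under 2-fold, 22 were no longer past it and 31 came past it. Direction turned in 0 of those past 2-fold in either setting. Signals near or under the floor on some array limit all genes but the 4 bright ones and CYP71B5.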
